A study of Rattus norvegicus with 30 samples.

Results

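Cultured rat hepatocytes given 20 µM chlorpromazine hydrochloride for 48 h were compared with the same cells given 0.8 µM for 48 h. The comparison used 10 of the 30 arrays in the study, chosen by dose and time in the sample titles: 5 arrays at 20 µM and 5 at 0.8 µM. It asks what the high dose did beyond the low one, with the drug present in both groups. The cells were primary hepatocytes from male Sprague Dawley rats, bought frozen, plated on collagen under a Matrigel overlay and dosed on day 3 of culture. Each array measured total RNA of 1 well, and the labels call the wells independent cultures without naming separate animals, so p-values measure the spread between wells. The other 20 arrays entered the shared estimate of spread, and some gave further comparisons: vehicle at 48 h (dimethyl sulfoxide at 1%, 5 arrays), the same doses at 24 h (5 arrays each) and vehicle at 24 h. The dosing solutions were made in the same solvent, and the titles of treated wells state no solvent content. The title of vehicle replicate 2 at 24 h reads 2 h while its time entry reads 24 h, and here that array only adds to the shared estimate of spread.

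Chlorpromazine is a phenothiazine that blocks dopamine and other amine receptors. It is also an amphiphilic weak base: such drugs are drawn into acidic lysosomes and can cause phospholipid to accumulate there, and chlorpromazine is known clinically for cholestatic liver injury. In the liver, bile acids are made from cholesterol by cytochrome P450 enzymes, taken up from blood by carriers of the sinusoidal membrane and pumped into bile by ABC transporters. Hepatocytes also carry most of the body's urea synthesis, much of its amino acid and fatty acid breakdown, and the secretion of clotting and complement proteins. Cells under amino acid or endoplasmic reticulum stress raise the transcription factors ATF4 and CHOP, which drive genes of amino acid supply and tRNA charging.

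Signals are MAS5 probe set intensities, and differences are log2(20 µM) minus log2(0.8 µM) ± SE with 5 arrays per group. A gene was called, written here as rose, fell or changed, when the adjusted p of limma with Benjamini-Hochberg adjustment over 11503 tested genes was under 0.05. At 48 h 3097 genes changed between the doses (26.9%), 1673 of them higher at 20 µM (14.5%) and 1424 lower (12.4%). Most differences were small: the median fold of changed genes was 1.29, and a change of 2-fold or more was reached by 190 genes (1.65%), of which 59 rose (0.513%) and 131 fell (1.14%). The signals of both groups did not overlap for 2304 genes (20.0%). The median difference of all genes was 0.02. A gene is called dim when the lower of its group means lay under a signal of 272, and its difference is then less certain.

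On the principal component that held 27.4% of the variance of the 10 arrays, the 0.8 µM arrays lay between -23.7 and -15.3 and the 20 µM arrays between 16.5 and 24.9. The mean correlation of an array with the others of its group ran from 0.970 to 0.974, and median signals from 396 to 426. The 3′/5′ signal ratio of GAPDH was 0.20 ± 0.03 on the log2 scale in both groups (SD, n = 5, exact permutation p = 0.913). For beta-actin the ratio was 1.27 ± 0.09 at 0.8 µM and 1.29 ± 0.11 at 20 µM (SD, n = 5, exact permutation p = 0.738). For hexokinase it was -2.05 ± 1.15 against 0.50 ± 1.45 (SD, n = 5, exact two-sided permutation p = 0.0238, smallest possible 0.00794), with control signals of 13 to 183 that lie below the dim limit; its part in the results was not tested. In array number each 20 µM array followed a 0.8 µM array directly, so position and dose cannot be told apart.

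**Figure D1:**
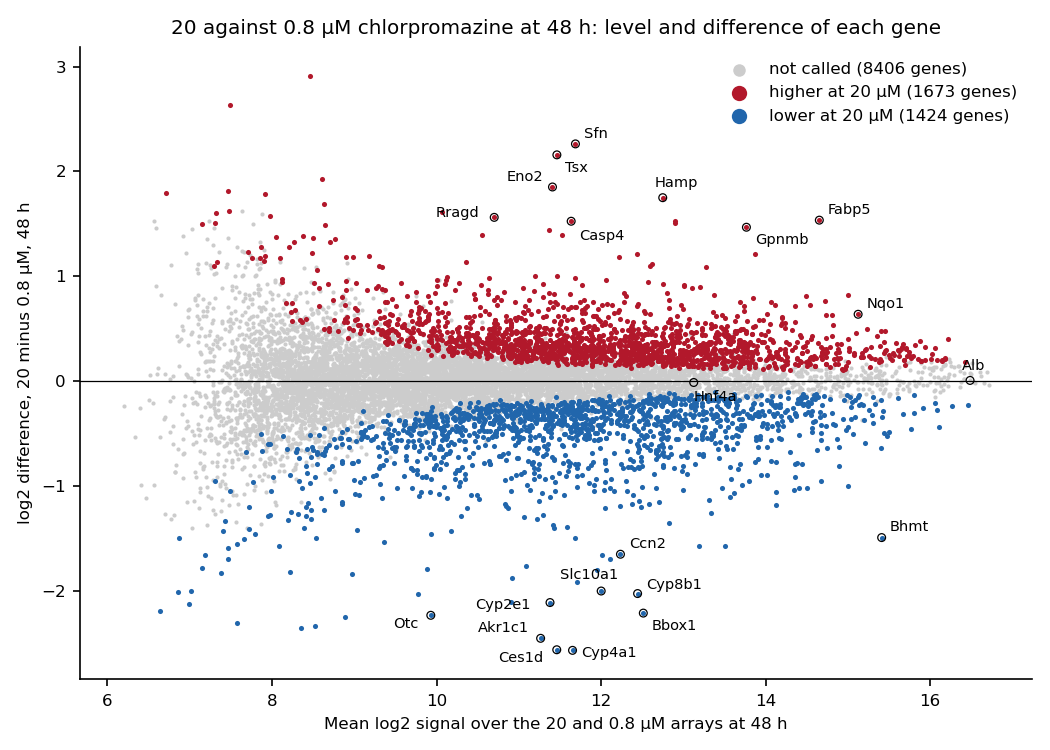
Each point is 1 of 11503 genes, with its mean log2 signal over the 10 arrays on the x axis and its log2 difference, 20 minus 0.8 µM at 48 h, on the y axis; red genes rose (1673), blue genes fell (1424) and grey genes were not called. Falls of more than 2 log2 units include Cyp4a1, Ces1d and Akr1c1 at bright signals, while Alb and Hnf4a lie near 0.

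Of the defining genes of hepatocytes some fell and others were not called. Alb, which encodes albumin, ran from 76746 to 112087 at 0.8 µM (median 83145) and from 71687 to 106971 at 20 µM (median 93292), with overlapping groups and a difference of 0.01 ± 0.13 (adjusted p = 0.981). Hnf4a, a core hepatocyte transcription factor, differed by -0.01 ± 0.05 (adjusted p = 0.901). Of 11 hepatocyte markers tested none rose and 4 fell, beside 14.5% and 12.4% of all genes. Those that fell were Apob (-0.52 ± 0.08), Tat (-0.43 ± 0.07), Asgr1 (-0.36 ± 0.05) and Fgb (-0.24 ± 0.09). Another probe set of Apob was called in the opposite direction, and the mean of its probe sets differed by 0.29, so its direction rests on the choice of probe set. Apart from Hnf4a, the uncalled markers had mean log2 signals above 16, among the brightest on the arrays, and whether such signals are compressed was not tested. The summed signal of the 11 ran from 587522 to 763074 at 0.8 µM and from 568743 to 705441 at 20 µM.

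Of the markers of other liver cells 1 rose and 2 fell. Of 8 Kupffer cell markers Cd68 rose and Cd14 fell, Cd163 was dim in both groups, and the summed signal was 17146 to 18274 at 0.8 µM and 14784 to 16322 at 20 µM. None of 9 stellate cell, 2 cholangiocyte, 4 leukocyte or 3 erythroid markers changed, and of 6 endothelial markers Kdr fell (-0.55 ± 0.19). Of all genes 14.5% rose and 12.4% fell, so lists this short cannot show that a cell type was unchanged. Krt7, Cftr and Spp1 of the cholangiocyte list and Cd3d, Cd8a, Cd79b and Nkg7 of the leukocyte list did not pass the filter. Neither did Adgre1 (Kupffer cell), Lrat (stellate cell) and Vwf (endothelial). Dim in both groups were Stab2, Pecam1 and Tek of the endothelial list, Ptprc, Cd3e and Coro1a of the leukocyte list, Col1a2 and Pdgfrb of the stellate list and Ank1 of the erythroid list. Coro1a differed by 1.46 ± 0.62 (adjusted p = 0.0838 in limma). In such bulk samples fewer cells of a type and less RNA per cell cannot be told apart.

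The largest rises of bright genes came from varied functions. Sfn, the 14-3-3 protein sigma and a p53 target, read 1780, 1517, 1551, 1336 and 1386 at 0.8 µM and 6206, 7162, 7768, 7430 and 7693 at 20 µM. All 20 µM arrays lay far above all 0.8 µM arrays, and the rise was 4.80-fold (2.26 ± 0.11, adjusted p = 1.21e-16). Eno2, the neuronal enolase, read 1288 to 1608 at 0.8 µM (median 1358) and 4484 to 6854 at 20 µM (median 4967), a rise of 1.85 ± 0.17. Hamp, which encodes the iron hormone hepcidin, read 3603, 4451, 4317, 2953 and 3646 at 0.8 µM and 10876, 13348, 13088, 9784 and 17245 at 20 µM. Again the groups did not overlap, and the rise was 3.36-fold (1.75 ± 0.25, adjusted p = 1.25e-06).

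Fabp5, a fatty acid carrier of many tissues, stood out for brightness. It read 14585 to 15776 at 0.8 µM and 39601 to 48873 at 20 µM (1.54 ± 0.07, adjusted p = 2.31e-16). Casp4, an inflammatory caspase, read 1787 to 2057 and 4825 to 6121 (1.52 ± 0.08). The remaining 7 of the 12 largest bright rises were Tsx (2.16 ± 0.18), the palmitoyltransferase Zdhhc18 (1.62 ± 0.22), Rragd (1.56 ± 0.12), the acid nuclease Dnase2b (1.53 ± 0.10), the class I histocompatibility gene RT1-CE5 (1.51 ± 0.10), Gpnmb (1.47 ± 0.10) and the AMP deaminase Ampd3 (1.44 ± 0.13). RT1 genes have near-identical relatives, so its probe set may read more than 1 of them. Leaving aside 1 dim gene known by a clone name, which rose more, the 4 largest dim rises without overlap were Tmem35b (2.63 ± 0.60), Mapk4 (1.93 ± 0.47), Krt4 (1.79 ± 0.41) and Lama5 (1.69 ± 0.54). Without replicate 4 of 0.8 µM Mapk4 rose by 1.23, and without replicate 1 of 0.8 µM Lama5 was no longer called (1.47, adjusted p = 0.0573).

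**Figure D2:**
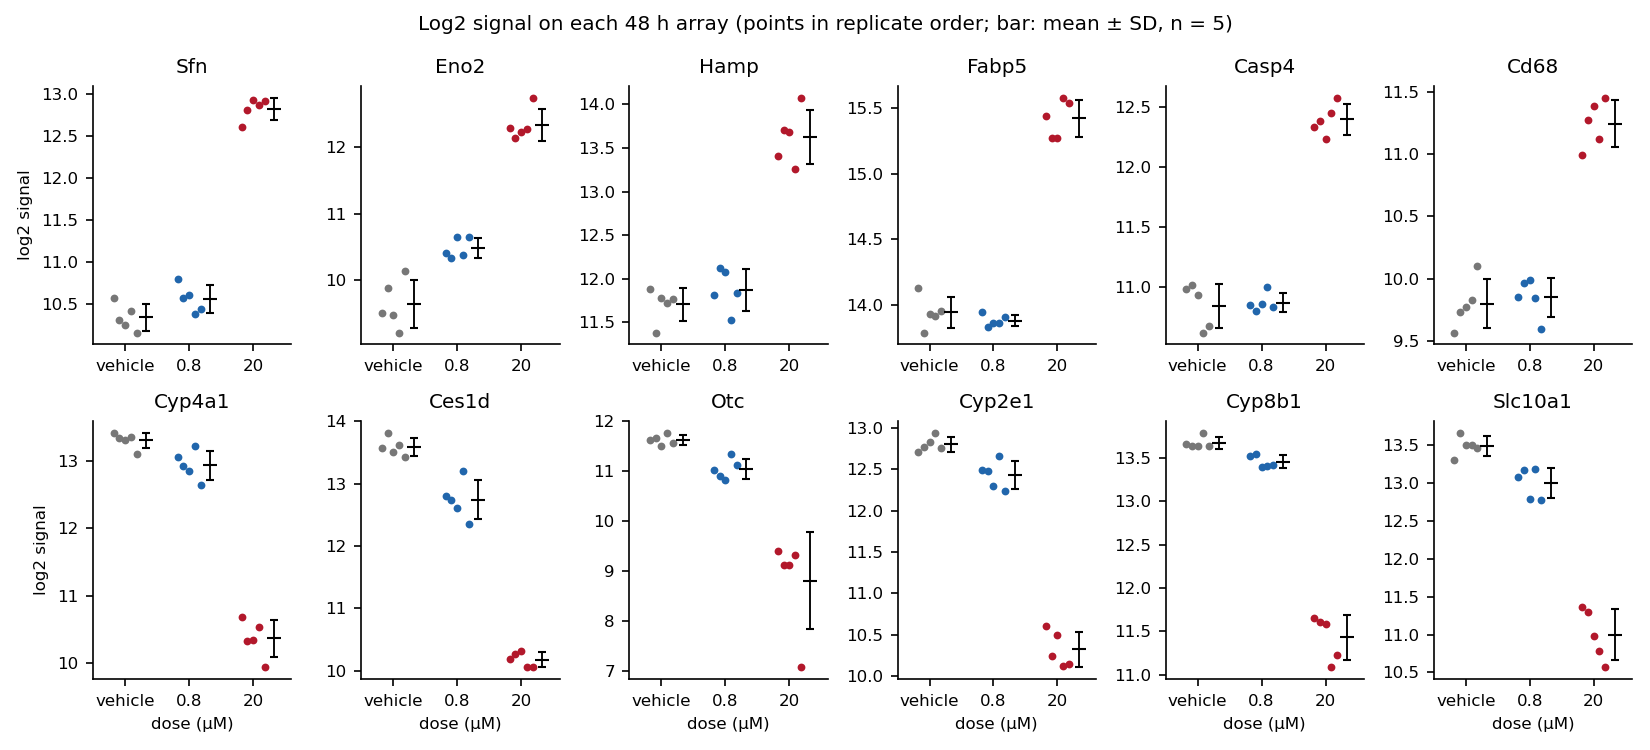
Log2 signal of 12 genes on each of the 15 arrays at 48 h: vehicle in grey, 0.8 µM in blue and 20 µM in red, with the mean ± SD of 5 arrays beside the points and a separate y axis for each gene. In each gene shown the 20 µM arrays lie apart from the 0.8 µM arrays, and for Otc replicate 5 of 20 µM (signal 135) lies below its group.

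Among the largest falls were enzymes of drug, lipid and nitrogen metabolism. Cyp4a1, the omega-hydroxylase of fatty acids and a classical target of the nuclear receptor PPARalpha, read 8521, 7749, 7360, 9496 and 6421 at 0.8 µM and 1643, 1294, 1297, 1491 and 983 at 20 µM. The highest 20 µM array lay well under the lowest 0.8 µM array, and the fall was 5.93-fold (-2.57 ± 0.15, adjusted p = 2.85e-14). Ces1d, a carboxylesterase of drugs and lipids, read 5211 to 9482 at 0.8 µM and 1064 to 1270 at 20 µM (-2.56 ± 0.16). Akr1c1, an aldo-keto reductase of steroids, read 5178 to 6836 and 887 to 1236 (-2.45 ± 0.14). The other 9 of the 12 largest bright falls are given with their pathways. The dim genes Olr59 (-2.36 ± 0.36), Sult2a6 (-2.34 ± 0.20), Lrtm2 (-2.30 ± 0.37) and AKR1C3l1 (-2.25 ± 0.19) also fell.

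Genes were then read by pathway in 46 lists, some of which share genes. Up to 3 called members of each list with the largest differences were named by rule, and further members were chosen as examples after their values were seen. For each list the counts stand against the background of 14.5% of all genes higher and 12.4% lower, and against a median of 0.02. In the plot of the lists, those with the highest shares of lowered genes cover esterases, fatty acid oxidation, amino acid breakdown, clotting and complement, and bile acid synthesis. Those with the highest shares of raised genes cover tRNA synthetases, the vacuolar proton pump, ATF4 and CHOP targets, ribosomal proteins and p53 targets.

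**Figure D3:**
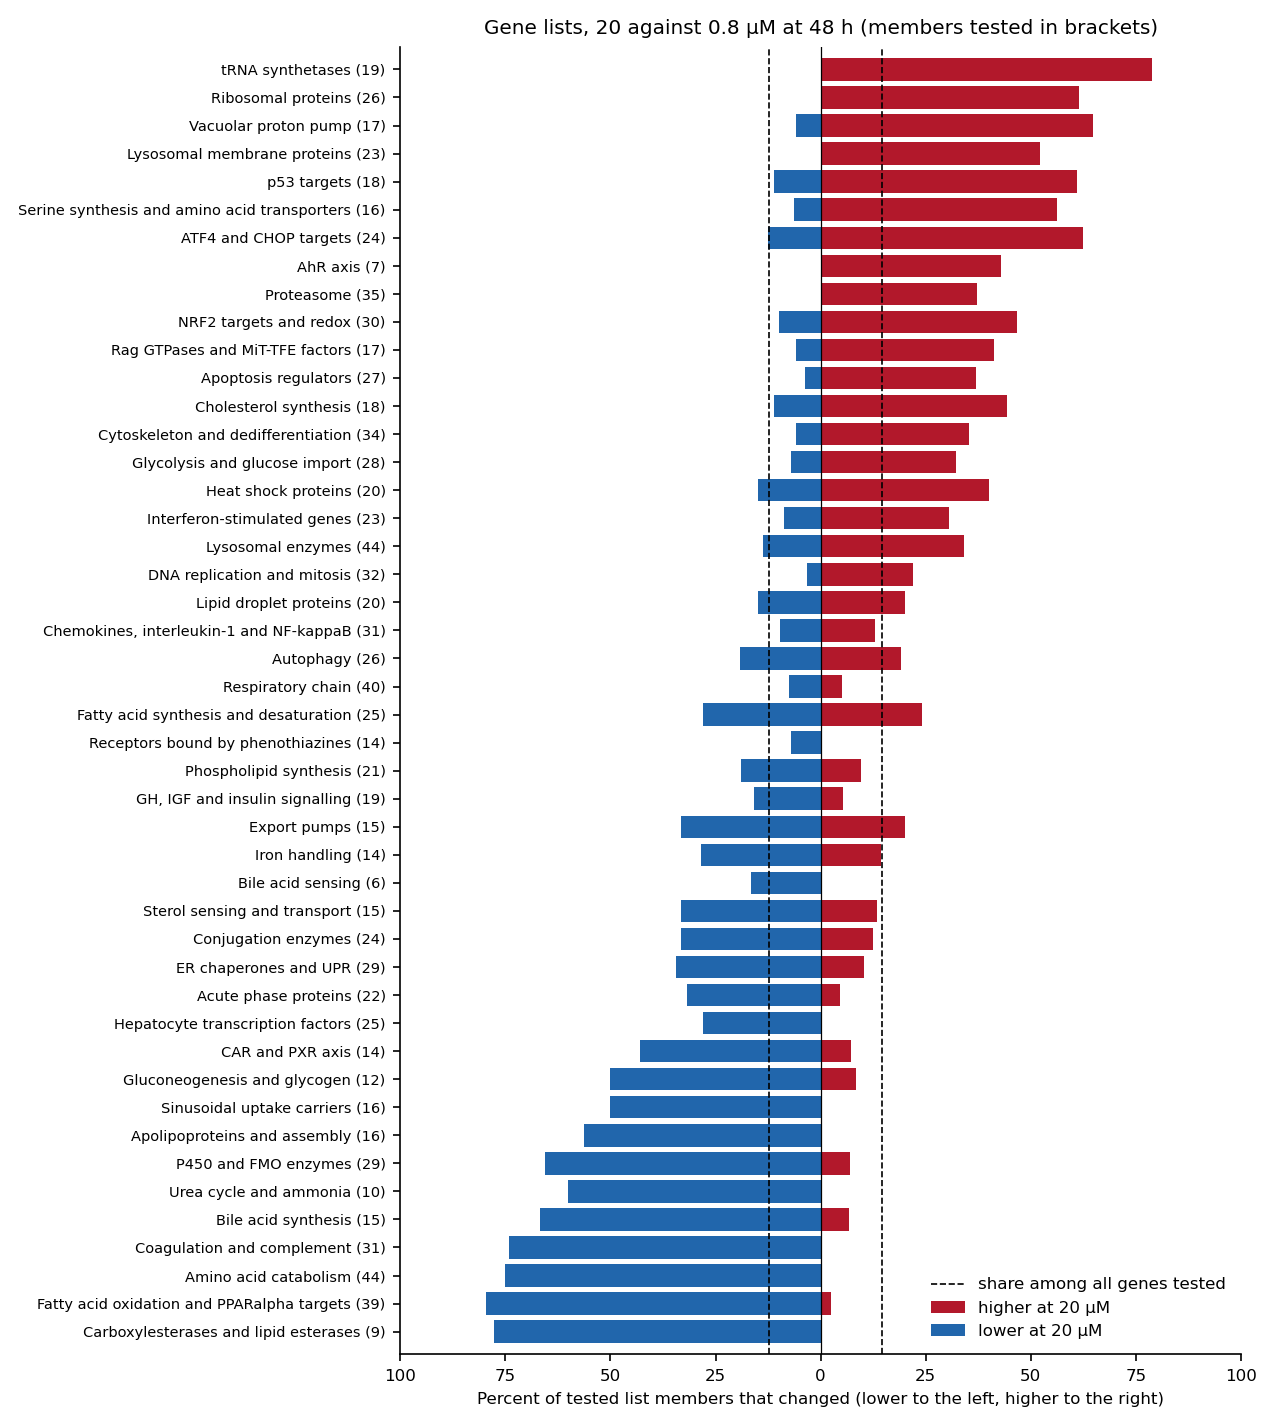
For each of 46 gene lists, the bar to the right gives the percent of tested members that rose at 20 against 0.8 µM at 48 h and the bar to the left the percent that fell; the number tested is in brackets and dashed lines mark the shares among all 11503 genes, 14.5% and 12.4%. Of the tRNA synthetases 15 of 19 rose and none fell, and of fatty acid oxidation genes 31 of 39 fell and 1 rose.

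Many genes of bile acid synthesis and import fell. Of 15 synthesis genes 10 fell and 1 rose (median -0.62), with 5 falls of at least 2-fold. Cyp8b1, the 12-alpha-hydroxylase that sets the proportion of cholic acid, read 11773, 11963, 10772, 10822 and 10937 at 0.8 µM and 3222, 3110, 3061, 2171 and 2403 at 20 µM. Its groups were far apart (-2.03 ± 0.09, adjusted p = 6.17e-17). Cyp7a1, which starts the classical pathway, read 2024, 1455, 1550, 3040 and 1200 against 460, 551, 582, 638 and 360 (-1.79 ± 0.25, adjusted p = 8.78e-07). The lowest 0.8 µM array of Cyp7a1 still lay above the highest 20 µM array. The conjugating steps fell as well: Slc27a5, the bile acid CoA ligase (-1.80 ± 0.15), and Baat, which joins bile acids to amino acids (-1.19 ± 0.17). Hsd3b7, an early step, rose by 0.17 ± 0.05.

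Of 16 sinusoidal carriers 8 fell and none rose (median -0.20). Slc10a1, the sodium-dependent bile acid importer, read 8700, 9205, 7108, 9293 and 7022 at 0.8 µM and 2634, 2520, 2022, 1767 and 1518 at 20 µM (a 4.01-fold fall, SE 0.11 on the log2 scale, adjusted p = 1.43e-14). The organic anion carriers Slco1b2 (-1.12 ± 0.15), Slco2b1 (-0.85 ± 0.12), Slco1a1 (-0.84 ± 0.16) and Slco1a4 (-0.82 ± 0.14) fell less, and the anion exchanger Slc22a8 fell by 1.13 ± 0.17. Slc2a2, the glucose carrier of hepatocytes, differed by -0.02 ± 0.05. Export pumps moved both ways, with 3 of 15 higher and 5 lower. The canalicular bile salt pump Abcb11 fell by 0.22 ± 0.04, from 14.05 ± 0.07 to 13.83 ± 0.02 (SD, n = 5). The phospholipid floppase Abcb4 fell by 0.70 ± 0.09, while the conjugate pump Abcc2 (0.35 ± 0.05) and the multidrug pump Abcb1a (0.87 ± 0.15) rose. The bile acid receptor Nr1h4 fell (-0.45 ± 0.07), and Nr0b2, a repressor it induces, was dim (-0.21 ± 0.58).

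Many cytochrome P450 genes fell, and some did not. Of 29 P450 and flavin mono-oxygenase genes 19 fell and 2 rose (median -0.65), with 10 falls and 1 rise of at least 2-fold. Cyp2e1, the ethanol- and acetaminophen-oxidising enzyme, read 5751, 5736, 5043, 6500 and 4815 at 0.8 µM and 1558, 1208, 1445, 1115 and 1137 at 20 µM (-2.11 ± 0.09, adjusted p = 2.62e-17). Cyp2a2 fell by 1.70 ± 0.15 and Cyp2c11 by 1.35 ± 0.09, and the fall of Cyp2c12 lay between theirs. Those that rose were Cyp4a8, the 1 rise past 2-fold, and Cyp2c6v1. Cyp2c7 (-0.08 ± 0.18), Cyp2c13 (-0.09 ± 0.25) and Cyp2d4 (-0.10 ± 0.07) were not called. Members of these subfamilies are close in sequence, so probe sets may share signal among them.

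Of 14 genes of the constitutive androstane and pregnane X receptors 6 fell and 1 rose (median -0.29). Cyp3a23-3a1, the main inducible target of the pregnane X receptor, had a mean log2 signal of 16.40 ± 0.14 at 0.8 µM and 16.42 ± 0.12 at 20 µM (SD, n = 5, limma adjusted p = 0.914). Whether signals this bright are compressed was not tested. Cyp3a18 fell by 1.37 ± 0.07, Cyp3a9 by 0.50 ± 0.15, and Nr1i3, the constitutive androstane receptor, by 0.77 ± 0.08. Of 7 genes of the aryl hydrocarbon receptor 3 rose and none fell: Nqo1 (0.64 ± 0.05), Tiparp (0.41 ± 0.10) and Cyp1a2 (0.30 ± 0.07). Cyp1a1, its most inducible target, differed by 0.18 ± 0.09 and was not called (adjusted p = 0.163). Of 24 conjugating enzymes 8 fell and 3 rose. Gstm7 fell by 1.88 ± 0.15 and the oestrogen sulphotransferase Sult1e1 by 0.98 ± 0.16, whereas Gstp1 (0.48 ± 0.05), Gstk1 (0.61 ± 0.07) and Sult1c2 (0.87 ± 0.15) rose.

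Most genes of fatty acid oxidation fell, among them genes of activation, import, breakdown and ketone production. Of 39 genes, a list that includes PPARalpha targets, 31 fell and 1 rose (median -0.73), and 13 fell at least 2-fold. Bbox1, the last enzyme of carnitine synthesis, fell by 2.21 ± 0.14, and Acsm3, a medium-chain acyl-CoA synthetase, by 2.03 ± 0.17. Cpt1a, which commits fatty acids to mitochondrial import, fell by 0.73 ± 0.14, the dehydrogenase Acadm by 0.75 ± 0.09, the peroxisomal Ehhadh by 1.45 ± 0.18 and the ketone enzyme Bdh1 by 0.96 ± 0.11. Angptl4, an inhibitor of lipoprotein lipase, fell by 1.92 ± 0.13, and Fabp1, the liver fatty acid carrier, by 1.66 ± 0.10, beside the rise of Fabp5 above. Hadhb, a subunit of the mitochondrial trifunctional protein, differed by 0.05 ± 0.04, and its partner Hadha fell by 0.43 ± 0.05. Fgf21, a fasting hormone and also a target of ATF4, rose by 0.47 ± 0.18. Pdk4, which holds back pyruvate oxidation, fell by 1.30 ± 0.10. In contrast 35 of 40 respiratory chain genes were not called (median 0.01, 2 higher, 3 lower).

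Many genes of nitrogen and glucose metabolism fell too. Of 44 genes of amino acid breakdown 33 fell and none rose (median -0.45). Bhmt, betaine-homocysteine methyltransferase, was among the brightest genes and read 79988, 72009, 77998, 69160 and 66811 at 0.8 µM and 30616, 24781, 25453, 26639 and 22878 at 20 µM (-1.49 ± 0.08, adjusted p = 9.09e-16). Homogentisate oxidase Hgd fell by 1.19 ± 0.09, kynureninase Kynu by 1.05 ± 0.08 and Ftcd of histidine breakdown by 1.02 ± 0.08. Otc, ornithine transcarbamylase of the urea cycle, read 2093, 1929, 1816, 2587 and 2236 at 0.8 µM and 680, 562, 557, 642 and 135 at 20 µM (-2.23 ± 0.25, adjusted p = 1.92e-08). Replicate 5 of 20 µM lay far below the rest, and with any 1 array left out the difference stayed between -2.38 and -1.80. The other cycle enzymes moved less: Arg1 fell by 0.44 ± 0.08, and Cps1 (-0.09 ± 0.09), Ass1 (-0.05 ± 0.06) and Asl (0.11 ± 0.06) were not called. Cps1 had mean log2 signals of 16.20 at 0.8 µM and 16.12 at 20 µM, and whether such signals are compressed was not tested.

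Of 12 genes of glucose production and glycogen 6 fell and 1 rose. Pyruvate carboxylase Pc (-1.11 ± 0.07), the cytosolic carboxykinase Pck1 (-1.07 ± 0.20), Fbp1 (-0.96 ± 0.10) and glycogen synthase Gys2 (-0.82 ± 0.06) fell, and Pck2, the mitochondrial carboxykinase, rose (0.97 ± 0.20). Of 28 genes of glycolysis and glucose import 9 rose and 2 fell. Those that rose included Eno2, the glucose carrier Slc2a1 (0.66 ± 0.15), the lactate carrier Slc16a3 (0.61 ± 0.16) and Pfkp (0.54 ± 0.07), while liver pyruvate kinase Pklr fell (-0.73 ± 0.13) and Ldha differed by 0.04 ± 0.08.

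Many genes of the clotting and complement cascades fell. Of 31 clotting and complement genes 23 fell and none rose (median -0.36). Klkb1, plasma prekallikrein, read 4350, 4422, 3775, 4217 and 3209 against 946, 1051, 1018, 738 and 884 (-2.11 ± 0.13, adjusted p = 7.01e-14), and was the 1 gene of the list past 2-fold. C8b (-0.82 ± 0.07), C4bpa (-0.82 ± 0.07), C5 (-0.78 ± 0.07) and factor IX F9 (-0.66 ± 0.06) fell less, and C3 (-0.12 ± 0.05) was not called. Of 22 acute phase genes 7 fell and 1 rose (median -0.03). Lbp, which presents endotoxin, rose by 0.64 ± 0.07, and serum amyloid P component Apcs fell by 0.57 ± 0.07.

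Liver transcription factors were lowered in part. Of 25 tested, 7 fell and none rose: Foxa1 (-0.92 ± 0.17), Onecut2 (-0.89 ± 0.18), Nr1i3, Cebpa (-0.72 ± 0.11), Nr1d1 (-0.51 ± 0.19, dim), Nr1h4 and Thrb (-0.43 ± 0.08). Foxa2 (-0.16 ± 0.07), Nr1i2 (-0.10 ± 0.08) and Hnf4a were not called, and Ppara was dim (-0.53 ± 0.57). The growth axis genes Igf1 (-0.63 ± 0.05) and Ghr (-0.42 ± 0.07) fell. Ccn2, a secreted target of YAP and TGF-beta signalling, read 9671, 8321, 8392, 7847 and 8594 at 0.8 µM and 2619, 2876, 2785, 2338 and 3036 at 20 µM. It fell 3.14-fold (-1.65 ± 0.07, adjusted p = 2.62e-17) within a cytoskeletal list in which 12 of 34 genes rose and 2 fell. Among those that rose were the tubulin Tubb5 (0.80 ± 0.07) and galectin-3 Lgals3 (0.73 ± 0.06), while vimentin Vim (-0.07 ± 0.07) was not called.

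Lysosomal genes rose in part, with higher shares among the pump and membrane genes than among the enzymes, a difference that was not tested. Of 17 genes of the vacuolar proton pump, which acidifies the organelle, 11 rose and 1 fell (median 0.37). Atp6v0b read 6967, 6557, 6192, 5989 and 6718 at 0.8 µM and 12376, 11472, 12131, 12148 and 11839 at 20 µM (0.89 ± 0.08, adjusted p = 7.85e-11). Atp6v1d (0.83 ± 0.08), Atp6v1f (0.71 ± 0.05) and Atp6v1c1 (0.68 ± 0.08) rose, the minor subunit Atp6v0e2 fell (-0.40 ± 0.10), and Atp6v0c (0.11 ± 0.07) and Atp6v1a (0.17 ± 0.07) were not called. Of 23 lysosomal membrane genes 12 rose and none fell (median 0.21). Gpnmb read 7173, 7603, 8962, 8035 and 10509 against 22624, 20654, 21709, 25502 and 25819 (1.47 ± 0.10), and the tetraspanin Cd63 rose by 0.81 ± 0.08.

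Cd68, a lysosomal glycoprotein and also a macrophage marker, read 928, 998, 1016, 923 and 775 at 0.8 µM and 2032, 2473, 2674, 2228 and 2799 at 20 µM (1.39 ± 0.13, adjusted p = 2.1e-10). None of the other 7 macrophage markers tested was called higher. Csf1r differed by -0.35 ± 0.18, C1qa by -0.16 ± 0.12, C1qb by -0.23 ± 0.25, Clec4f by -0.27 ± 0.21 and Aif1 by 0.07 ± 0.21. Cd163, dim in both groups, differed by 0.37 ± 0.23 and was not called. Cd14, the brightest of the 8, fell from a mean log2 signal of 13.70 to 13.34 and carries most of the list's summed signal. The part of macrophages in the rise of Cd68 was not tested.

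Of 44 lysosomal enzymes 15 rose and 6 fell (median 0.11). The sterol binding protein Npc2 (0.72 ± 0.06), the mannosidase Manba (0.71 ± 0.08), legumain Lgmn (0.45 ± 0.07) and acid ceramidase Asah1 (0.43 ± 0.10) rose. Acid lipase Lipa (-0.29 ± 0.05) and prosaposin Psap (-0.25 ± 0.06) fell, as did acid sphingomyelinase Smpd1 (-0.23 ± 0.07), an enzyme that cationic amphiphilic drugs are known to inhibit; with arrays centred on their medians Smpd1 was not called (-0.20, adjusted p = 0.0763). In the list of lysosomal nutrient sensing 7 of 17 genes rose and 1 fell. Rragd, a Rag GTPase, read 955, 908, 946, 863 and 1205 against 2645, 2678, 2945, 2802 and 3272 (1.56 ± 0.12). Flcn (0.41 ± 0.08), Lamtor3 (0.62 ± 0.05) and Rragc (0.23 ± 0.06) rose, while Tfeb (-0.27 ± 0.16) and Tfe3 (-0.02 ± 0.13), transcription factors of lysosomal genes, were not called. In the autophagy list 5 of 26 genes rose and 5 fell; the cargo receptor Sqstm1 rose by 0.34 ± 0.07.

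Some genes of sterol synthesis rose. Of 18 cholesterol synthesis genes 8 rose and 2 fell (median 0.19). Cyp51, the lanosterol demethylase, read 7764, 7760, 7899, 8416 and 7882 at 0.8 µM and 13549, 12972, 12148, 15548 and 16484 at 20 µM (0.82 ± 0.09, adjusted p = 6.81e-09). Acat2 (0.63 ± 0.07), Msmo1 (0.60 ± 0.07) and Fdps (0.48 ± 0.07) rose, and Dhcr7 fell (-0.42 ± 0.14). Insig1, which restrains the pathway, rose by 0.38 ± 0.05, Insig2 fell by 0.99 ± 0.10, and the sterol exporter Abcg1 fell by 1.10 ± 0.10. Of 25 genes of fatty acid synthesis and desaturation 6 rose and 7 fell (median -0.07). Fads1, the delta-5 desaturase, read 1522 to 2711 at 0.8 µM and 4217 to 5862 at 20 µM (1.40 ± 0.14), beside falls of Acaca (-0.51 ± 0.09), Srebf1 (-0.45 ± 0.11), Scd (-0.35 ± 0.06) and Acly (-0.33 ± 0.10). Of 21 phospholipid synthesis genes 2 rose (Pcyt2 and Pcyt1a), 4 fell and 15 were not called (median 0.07). Among those that fell, Pemt, which methylates phosphatidylethanolamine, differed by -0.65 ± 0.11. Plin2, the main droplet coat protein of hepatocytes, differed by -0.12 ± 0.06 (adjusted p = 0.179); with quantile normalization (-0.18) or its probe sets averaged (-0.36) it was called lower.

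The ATF4 and CHOP programme rose with the genes of amino acid supply and tRNA charging. Of 24 targets 15 rose and 3 fell (median 0.43). Trib3, a pseudokinase induced by both factors, read 4335, 3355, 3517, 3037 and 4027 at 0.8 µM and 7234, 7554, 7777, 9352 and 10558 at 20 µM (1.21 ± 0.11, adjusted p = 2.65e-10). Ddit3, which encodes CHOP, read 3660, 3284, 3435, 2196 and 3385 against 6798, 6681, 7217, 6680 and 8585 (1.19 ± 0.12). The 20 µM arrays of both genes lay above all 0.8 µM arrays. The stress cytokine Gdf15 (1.19 ± 0.17), asparagine synthetase Asns (0.90 ± 0.07), Atf3 (0.83 ± 0.14) and Atf4 itself (0.43 ± 0.04) rose, while Gpt2 (-0.86 ± 0.11) and Cth (-0.77 ± 0.08) fell. Of 16 genes of serine synthesis and amino acid transport 9 rose and 1 fell, led by Slc3a2 (0.76 ± 0.05), the heavy chain of several amino acid exchangers. Of 19 tRNA synthetases 15 rose and none fell (median 0.29), from Sars1 (0.84 ± 0.11) to Kars1 (0.21 ± 0.06). Against vehicle at 48 h the medians of the 3 lists, in this order, were 0.25, 0.25 and 0.24 at 20 µM. At 0.8 µM they were -0.14, -0.17 and -0.11.

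Most chaperones of the unfolded protein response did not rise. Of 29 genes 10 fell and 3 rose (median -0.11). Hspa5, the main chaperone of the endoplasmic reticulum, had a mean log2 signal of 15.38 ± 0.02 at 0.8 µM and 15.44 ± 0.07 at 20 µM (SD, n = 5, limma adjusted p = 0.298). Hyou1 (-0.81 ± 0.18), Calr (-0.70 ± 0.14), Hsp90b1 (-0.43 ± 0.05) and Xbp1 (-0.19 ± 0.05) fell, and Dnajc3 rose (0.36 ± 0.05). The cytosolic Hspa1a fell by 0.73 ± 0.12.

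Promoter windows, from 250 bases before to 50 after each gene's start in RefSeq (GRCr8), were searched on both strands for the letters TGATGNAAN, a form of the amino acid response element that ATF4 dimers bind. This form occurred in 3.97% of 33469 windows and in 2.25% of the 9570 tested genes with a window. It occurred in 6 of 22 ATF4 and CHOP targets with a window, 3 of 14 genes of serine synthesis and transport, and 7 of 17 tRNA synthetases, of which 4, 2 and 6 rose. It was 1 of 12 motifs searched and was kept, like the promoters shown, after its matches had been seen, so the counts describe these genes and test nothing. The windows of Trib3 (chr3:161275484-161275783, minus strand), Yars1 (chr5:146819913-146820212, plus strand) and Pck2 (chr15:32997603-32997902, plus strand) are shown because these genes rose and hold the match; they are written 5′ to 3′ along the gene with the match in capitals.
Trib3: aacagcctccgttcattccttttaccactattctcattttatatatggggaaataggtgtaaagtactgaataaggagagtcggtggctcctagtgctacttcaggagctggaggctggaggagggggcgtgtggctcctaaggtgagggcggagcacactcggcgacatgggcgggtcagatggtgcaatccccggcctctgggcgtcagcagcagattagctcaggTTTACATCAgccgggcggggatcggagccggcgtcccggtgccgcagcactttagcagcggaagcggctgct
Yars1: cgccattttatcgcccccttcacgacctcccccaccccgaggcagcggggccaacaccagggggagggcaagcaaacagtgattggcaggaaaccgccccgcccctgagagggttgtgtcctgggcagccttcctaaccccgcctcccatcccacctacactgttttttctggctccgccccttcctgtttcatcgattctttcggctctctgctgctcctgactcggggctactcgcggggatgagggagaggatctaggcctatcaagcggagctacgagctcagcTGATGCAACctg
Pck2: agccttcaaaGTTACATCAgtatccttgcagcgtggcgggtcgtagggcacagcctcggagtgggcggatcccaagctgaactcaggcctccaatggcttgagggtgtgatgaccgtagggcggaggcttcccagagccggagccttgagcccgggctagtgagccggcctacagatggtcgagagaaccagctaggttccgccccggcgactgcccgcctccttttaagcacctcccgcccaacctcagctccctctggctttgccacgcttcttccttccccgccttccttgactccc
The match begins 22 bases before the start in Trib3 and 240 bases before it in Pck2, on the opposite strand in both, and 39 bases after the start in Yars1, on the gene's own strand. Yars1, which charges tyrosine to its tRNA, read 6219, 5603, 6007, 5580 and 5916 at 0.8 µM and 7990, 7711, 8411, 8043 and 8248 at 20 µM (0.46 ± 0.07). Pck2 read 748, 564, 872, 640 and 896 against 1472, 1385, 1389, 1380 and 1552. Ddit3 has no match in its window, and most members of the lists that rose have none.

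3 other motifs were counted in the same way, and these counts test nothing either. The letters TCACGTGA are the core of the element bound by TFEB and its relatives. They occurred in 1.67% of tested genes, 2 of 33 lysosomal enzymes, 4 of 20 membrane genes and 2 of 13 pump genes. Of the matching genes in these lists, in this order, 1, 2 and 1 rose. TGACNNNGC, the core of the antioxidant response element, occurred in 15.50% of tested genes and in 7 of 26 NRF2 targets, of which 5 rose. GCGTG, the core bound by the aryl hydrocarbon receptor, occurred in 49.83% of tested genes and in 3 of the 5 windows of its list.

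Oxidative stress, p53 and cell death genes rose in part. Of 30 NRF2 targets 14 rose and 3 fell (median 0.16). Nqo1 read 28877, 27524, 27293, 31186 and 28407 at 0.8 µM and 46423, 44117, 46386, 45955 and 40105 at 20 µM (0.64 ± 0.05, adjusted p = 2.27e-11). Akr1b8 (0.92 ± 0.16) and sulphiredoxin Srxn1 (0.63 ± 0.06) rose. Haem oxygenase Hmox1 rose by 0.23 ± 0.08 (adjusted p = 0.039), and leaving out any of 7 of the 10 arrays ended that call. Of 18 p53 targets 11 rose and 2 fell (median 0.33): beside Sfn, Aen (0.81 ± 0.08), Ccng1 (0.67 ± 0.06) and Mdm2 (0.62 ± 0.06) rose, and Sesn1 fell (-0.79 ± 0.07). Cdkn1a, the cell cycle inhibitor p21, differed by 0.08 ± 0.09 (adjusted p = 0.584). Of 27 apoptosis regulators 10 rose and 1 fell, among them Cflar, an inhibitor of caspase 8 (1.09 ± 0.17), Casp12 (0.59 ± 0.08) and the killer protein Bcl2l11 (0.41 ± 0.06).

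The rises of ribosomal and proteasome genes were small. Of 26 ribosomal protein genes 16 rose and none fell, and the differences of all 26 ran from 0.12 to 0.59 with a median of 0.21. Of 35 proteasome genes 13 rose and none fell (median 0.13), led by the inducible subunits Psmb9 (0.65 ± 0.09) and Psmb8 (0.57 ± 0.10). Among the ribosomal genes the largest difference, that of Rps13 (0.59), was not called. Rpl14 rose by 0.34 ± 0.05, and with its probe sets averaged it was not called (0.39, adjusted p = 0.238).

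The same doses at 24 h, measured on other arrays, differed for 1797 genes (15.6%), 999 higher (8.68%) and 798 lower (6.94%). At 24 h replicate 1 of 0.8 µM lay apart from the rest of its group for some genes. Its signal was 4779 against 10528 to 14818 for Hamp, 6718 against 3281 to 3570 for Akr1c1 and 2537 against 1043 to 1116 for Cyp7a1. No setting left out a single 24 h array, here or in the test between times, so the part of this array was not tested. Whether the dose difference itself differed between the times was tested directly: it was larger or smaller at 48 h for 166 genes (1.44%), 50 with a more positive value at 48 h (0.435%) and 116 with a more negative one (1.01%). The most negative values included metabolic genes. The dose difference of Cyp2e1 was -0.61 ± 0.09 at 24 h and -2.11 ± 0.09 at 48 h (difference -1.50 ± 0.13, adjusted p = 8.55e-09). That of Ces1d was -0.88 ± 0.16 and -2.56 ± 0.16, that of Cyp4a1 -1.04 ± 0.15 and -2.57 ± 0.15, and that of Akr1c1 -1.04 ± 0.14 and -2.45 ± 0.14. Otc went from -0.74 ± 0.25 to -2.23 ± 0.25 and Cyp2a2 from -0.50 ± 0.15 to -1.70 ± 0.15. Such a change can come from either dose group. The mean log2 signal of Cyp2e1 went from 12.44 at 24 h to 10.32 at 48 h at 20 µM, and from 13.05 to 12.43 at 0.8 µM. For Cyp4a1 it went from 10.89 to 10.37 at 20 µM, and rose from 11.94 to 12.94 at 0.8 µM.

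Among the more positive values, Cd68 went from 0.09 ± 0.13 at 24 h to 1.39 ± 0.13 at 48 h (difference 1.30 ± 0.18, adjusted p = 4.04e-05). Eno2 went from 0.68 ± 0.17 to 1.85 ± 0.17 and Sfn from 1.29 ± 0.11 to 2.26 ± 0.11. The actin-bundling gene Lcp1 went from -0.01 ± 0.14 to 0.87 ± 0.14, and Lcp1 too is abundant in leukocytes. Hamp (0.34 ± 0.25 and 1.75 ± 0.25) and Cflar (0.12 ± 0.17 and 1.09 ± 0.17) were also called, and this call was lost in 5 and 6 of 21 other settings. At 20 µM the mean log2 signal of Hamp was 13.70 at 24 h and 13.62 at 48 h, while at 0.8 µM it went from 13.36 to 11.87. That of Cd68 went from 10.74 to 11.24 at 20 µM and from 10.65 to 9.85 at 0.8 µM. By list, 10 of 39 fatty acid oxidation genes, 7 of 31 clotting and complement genes and 6 of 29 P450 genes had a more negative dose difference at 48 h, and none of these lists had a more positive one. Against 1.44% of all genes, none of 24 ATF4 and CHOP targets, 19 tRNA synthetases or 30 NRF2 targets was called. At that share lists of this size would hold few or no calls, so their absence does not show a steady dose difference. The list medians at 24 and 48 h were 0.27 and 0.43, 0.23 and 0.29, and 0.21 and 0.16. Trib3 was at 0.99 ± 0.11 and 1.21 ± 0.11, and Nqo1 at 0.68 ± 0.05 and 0.64 ± 0.05. With arrays centred on their medians 91 genes were called in this test, and with array weights 294.

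**Figure D4:**
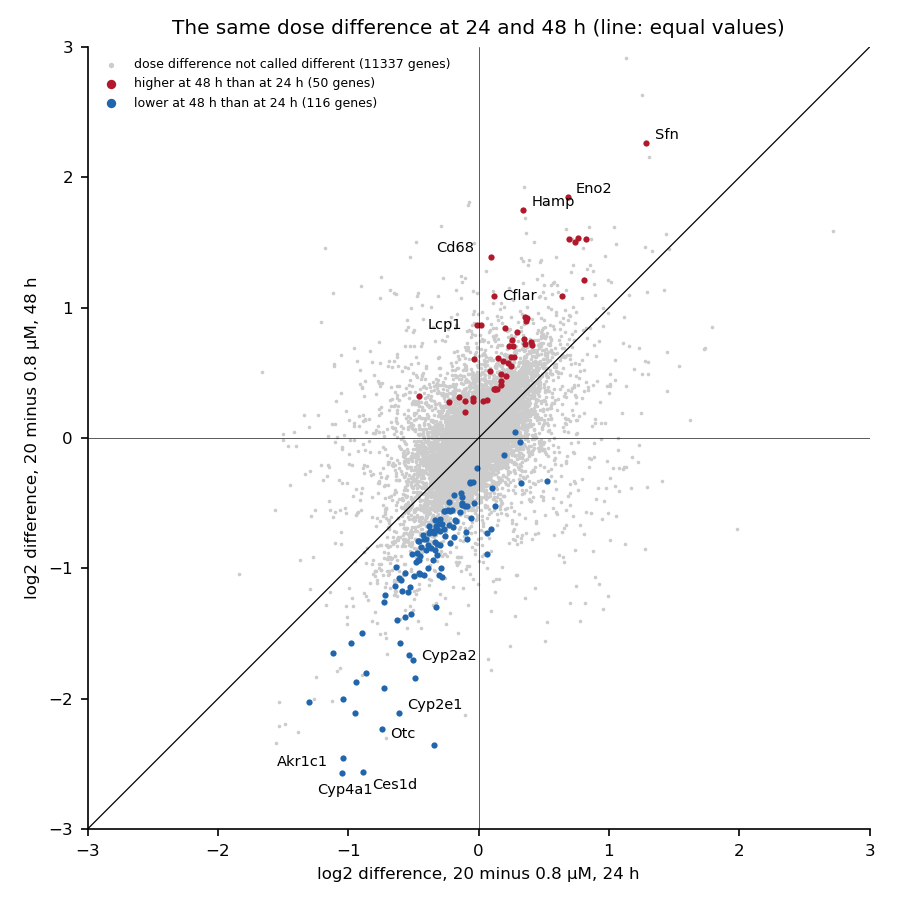
Each point is a gene, with its log2 difference, 20 minus 0.8 µM, at 24 h on the x axis and at 48 h on the y axis; the line marks equal values. Red (50) and blue (116) genes had a dose difference that was called more positive or more negative at 48 h, and Ces1d, Cyp4a1 and Cyp2e1 lie far below the line.

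Some genes differed between 0.8 µM and vehicle, so a gene can differ little between the doses and still be far from vehicle. In array number each 0.8 µM array followed a vehicle array directly, and treated wells state no solvent content. Dose, solvent and position therefore cannot be told apart against vehicle. Against vehicle at 48 h, 383 genes differed at 0.8 µM (3.33%), 183 higher (1.59%) and 200 lower (1.74%). At 20 µM 4050 differed from vehicle (35.2%), 2338 higher (20.3%) and 1712 lower (14.9%). Both comparisons share arrays with the one between doses, so values are only set side by side. The count of 383 was 237 without replicate 3 of 0.8 µM, 199 without replicate 5 of 0.8 µM, and 172 with arrays centred on their medians. Cyp1a2, the P450 of caffeine, read 7442, 7794, 7985, 8398 and 8394 in vehicle, 12444, 14695, 12550, 14612 and 14116 at 0.8 µM and 19146, 15210, 15093, 19278 and 15884 at 20 µM. Its step from vehicle to 0.8 µM was 0.77 and its step from 0.8 to 20 µM 0.30; for Cyp1a1 the steps were 0.52 and 0.18, the second not called.

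Other genes moved the same way in both steps. Il1r2, the decoy receptor of interleukin-1, read 1521 to 2571 in vehicle, 3661 to 4775 at 0.8 µM and 8257 to 11088 at 20 µM, with steps of 1.13 and 1.10. The steps were -1.36 and -0.98 for Sult1e1, -0.93 and -0.65 for Pemt, and -0.66 and -0.51 for Acaca. Slc10a1 fell by 0.49 and then 4.01-fold, and the steps were -0.98 and -1.79 for Cyp7a1, and -0.85 and -2.56 for Ces1d. The difference between the steps was not tested. Cyp8b1 (-0.22, adjusted p = 0.224), Sfn (0.22, adjusted p = 0.321), Hamp (0.17, adjusted p = 0.825) and Trib3 (-0.17, adjusted p = 0.501) were not called between vehicle and 0.8 µM. Tmem14a read 561 to 1073 in vehicle, 1190 to 2046 at 0.8 µM and 1108 to 1807 at 20 µM, with a called step of 1.13 and then a difference of -0.13 ± 0.24 that was not called. Of the lists, 5 of 17 pump genes were higher at 0.8 µM than in vehicle. Lower at 0.8 µM than in vehicle were 8 of 29 P450 genes, 6 of 25 genes of fatty acid synthesis and 6 of 44 of amino acid breakdown. So were 5 of 16 sinusoidal carriers, 5 of 39 genes of fatty acid oxidation and 3 of 24 ATF4 and CHOP targets. Of 16 genes of serine synthesis and transport 2 were lower, as were 2 of 19 tRNA synthetases.

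**Figure D5:**
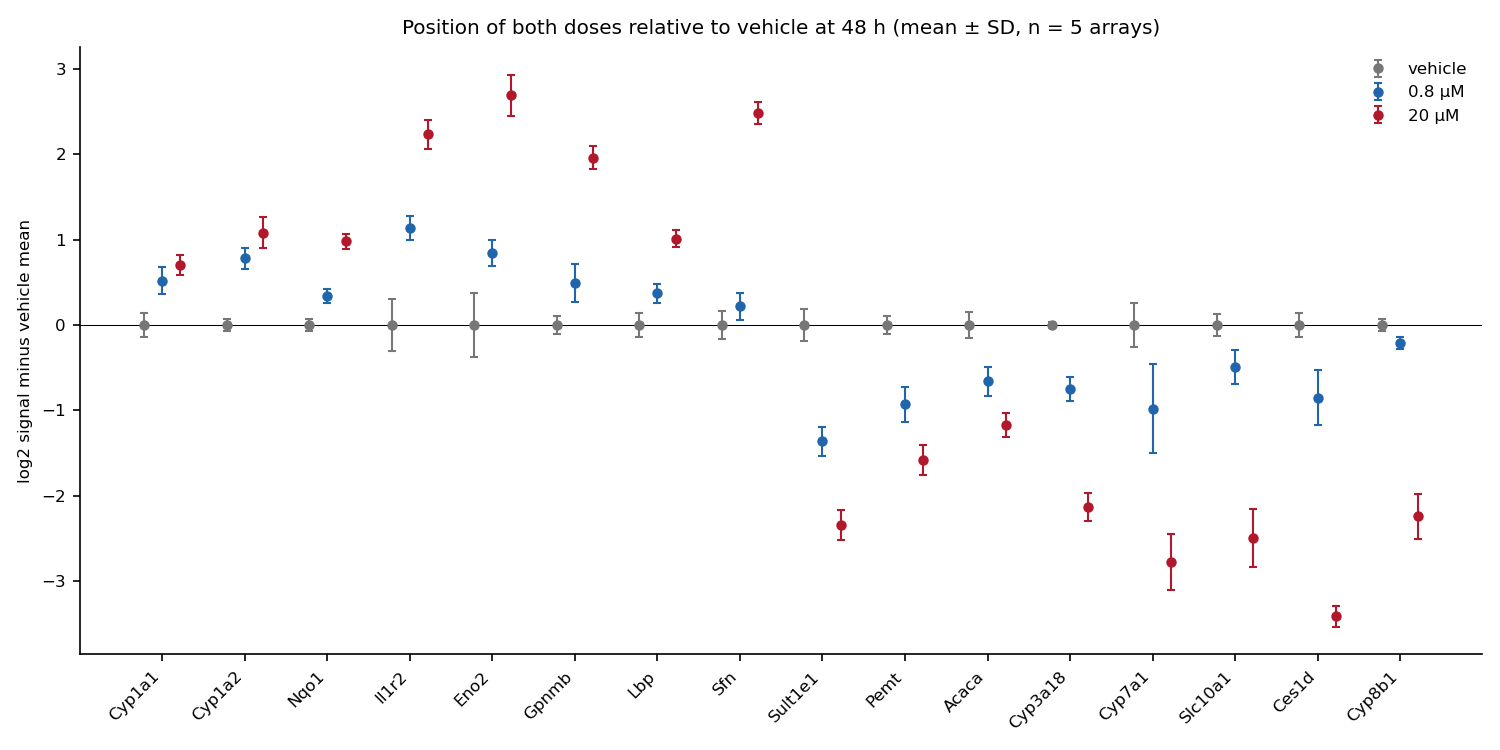
Mean log2 signal ± SD (5 arrays) of 16 genes at 48 h after subtraction of each gene's vehicle mean, with vehicle in grey, 0.8 µM in blue and 20 µM in red; both doses are set against the same vehicle arrays. Cyp1a2 lies most of its distance from vehicle at 0.8 µM already (0.77), while Cyp8b1 and Sfn are at -0.22 and 0.22 there and far from vehicle at 20 µM.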

How the data were processed

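RNA of 30 hepatocyte cultures was measured on Affymetrix rat arrays, 1 array per culture and 5 per group of dose and time. The deposited values are probe set intensity on a linear scale, made with MAS5 per the submitters' processing notes; its version is not given in the sources used here. On each array the trimmed mean between the 2nd and 98th percentiles lay between 1500.6 and 1500.7, so the deposited arrays share a scale, and no further normalization was applied. Such scaling fixes each array's mean, so a shift of total RNA cannot be seen, and the number of arrays limits the precision.

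Intensities under 16 were set to 16 (3.85% of values on the 10 arrays compared) and taken to log2. Of 31099 probe sets, 21226 lay above the 40th percentile of their array on at least 5 arrays and were kept; 57 control probe sets were left out. Names came from the platform annotation: 20826 probe sets had 1 gene symbol, 436 had several and 9780 were not listed, and only those with 1 symbol were named. Of 20764 symbols checked by gene identifier against RefSeq, 0 needed an update. A gene is its brightest kept probe set, which gave 11503 genes. With limma 3.58.1 in R 4.3.3, a mean per group was fitted over all 30 arrays with a moderated spread that follows the mean level, and p-values were adjusted by Benjamini-Hochberg over all genes. The script was tested on simulated data. Figures and counts used Python 3.11.15, pandas 2.3.3 and matplotlib 3.10.9.

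Groups came from titles and time entries. Replicates were numbered in accession order, which pairs nothing.

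Named genes were the 12 largest bright and 4 largest dim changes in each direction without overlap (locus and clone names left out), up to 3 called members of each list, the 6 largest values in each direction for the time test, up to 3 for the low dose in each direction, and a panel of 29 genes, of which 4 were not analysed here. Further list members were added as examples. The gene lists, the panel and the comparison itself were chosen with earlier results of these data known.

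Alternatives changed the floor, filter, normalization, spread model, array weights, arrays fitted, probe set summary, threshold or array number set, or left out 1 array.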

Additional observations from a re-analysis of the deposited data

Results flagged for a closer look

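In 23 of 322 groups of 5 arrays 1 array lay far from the other 4. Its gap to the nearest in log2 signal, as a share of the group's log2 range, exceeded Dixon's limit for 5 samples. Chance gives about 1 in 20 groups. The shares below are on the log2 scale, and the signals beside them are linear. Replicate 5 of 20 µM was the outlying array in 9 cases. It was highest for Eno2 (0.73 of the range, signal 6854 against a median of 4882), Ampd3 (0.75 of the range, signal 4727 against a median of 4245), Abcb1a (0.78 of the range, signal 3161 against a median of 1940), Hspa1a (0.73 of the range, signal 2108 against a median of 1456) and Il1r2 (0.75 of the range, signal 11088 against a median of 8682). It was lowest for Otc (0.88 of the range, signal 135 against a median of 602), Abcg1 (0.72 of the range, signal 504 against a median of 629), Apcs (0.74 of the range, signal 12324 against a median of 14531) and Cdkn1a (0.77 of the range, signal 5216 against a median of 6441). The others at 20 µM were Sult2a6 replicate 4 (lowest, 0.87 of the range, signal 102 against 183), Mgll replicate 3 (highest, 0.88 of the range, signal 2130 against 1585), Slc22a8 replicate 1 (lowest, 0.81 of the range, signal 501 against 1176), Pck1 replicate 4 (lowest, 0.78 of the range, signal 489 against 789) and Calr replicate 2 (highest, 0.82 of the range, signal 7798 against 4800). At 0.8 µM they were Tmem35b replicate 4 (highest, 0.89 of the range, signal 199 against 57), Mapk4 replicate 4 (lowest, 0.73 of the range, signal 30 against 369), Sult2a6 replicate 5 (lowest, 0.74 of the range, signal 670 against 873), Sds replicate 1 (lowest, 0.87 of the range, signal 46 against 418) and Hgd replicate 1 (lowest, 0.74 of the range, signal 2419 against 2852). Further cases at 0.8 µM were Cyp51 replicate 4 (highest, 0.78 of the range, signal 8416 against 7823), Ddit3 replicate 4 (lowest, 0.79 of the range, signal 2196 against 3410), Tfr2 replicate 1 (highest, 0.85 of the range, signal 5991 against 4339) and Bcl2a1 replicate 3 (lowest, 0.73 of the range, signal 42 against 220).

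For 41 named genes the dose difference at 48 h differed from that at 24 h, tested as 1 interaction term in limma over other arrays at each time. The value at 48 h was more positive, by the log2 amount in brackets, for Hamp (1.41), Cd68 (1.30), Eno2 (1.17), Cflar (0.97), Sfn (0.97), Lcp1 (0.88), Casp4 (0.83), Fabp5 (0.77), RT1-CE5 (0.77), Dnase2b (0.71), Cd63 (0.52), Manba (0.47), Npc2 (0.37), Lamtor3 (0.35) and Atp6v1f (0.30). It was more negative for Olr59 (-2.01), Ces1d (-1.68), Cyp4a1 (-1.52), Cyp2e1 (-1.50), Otc (-1.49), Akr1c1 (-1.42), Cyp2a2 (-1.20), Angptl4 (-1.19), Klkb1 (-1.16), Pdk4 (-0.97), Slc10a1 (-0.96), Slc27a5 (-0.94) and Gstm7 (-0.94). Smaller negative values belonged to Cyp2c11 (-0.83), Cyp3a18 (-0.81), Cyp8b1 (-0.73), Insig2 (-0.61), Bhmt (-0.60), Mgll (-0.59), Ccn2 (-0.54), C8b (-0.52), Lcat (-0.35), Cryab (-0.33), Apom (-0.32), Igf1 (-0.29) and Chpt1 (-0.26). Among 21 other settings Chpt1 and Cryab lost this call in 10, Apom and Olr59 in 9, Mgll in 8, Cflar in 6 and Hamp in 5.

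Of 5550 kept probe sets with no single gene symbol, which entered no comparison above, 700 were called between the doses at 48 h (12.6%), 270 higher and 430 lower.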

How the results depend on the processing

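Leaving out 1 of the 10 arrays gave 2792 to 2935 genes in place of 3097 between the doses at 48 h, 1492 to 1599 higher in place of 1673 and 1300 to 1358 lower in place of 1424. It gave 136 to 175 in place of 166 for the test between times, 1764 to 1804 in place of 1797 at 24 h, 199 to 422 in place of 383 for 0.8 µM against vehicle, and 3727 to 4051 in place of 4050 for 20 µM against vehicle. A test against a 1.2-fold change called 703 genes, 273 higher and 430 lower. An adjusted p under 0.01 called 1114 higher and 1022 lower. With arrays centred on their medians, where the median difference of all genes was 0.047, 1652 genes were higher and 1100 lower between the doses, 91 were called between times and 172 for 0.8 µM against vehicle. Array weights called 294 genes between times. The cause of these changes was not tested, other than that the stricter thresholds call fewer genes by construction.

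Of 161 named genes 145 kept their call and direction in all 23 settings run, 10 of which left out 1 array. Apob reversed to 0.29 with its probe sets averaged (adjusted p = 0.185 in limma). The list median of sterol sensing and transport ran from -0.10 to 0.09, and that of receptors bound by phenothiazines from -0.08 to 0.02, when 1 array was left out. Replicate numbers follow accession order and pair nothing; with sets of 6 consecutive array numbers, each holding 1 array of every group, as a block 3187 genes were called, 1725 higher and 1462 lower. With the 10 compared arrays alone 3048 were called, and Relb (0.57, adjusted p = 0.0624) and Ska3 (adjusted p = 0.0758) lost their calls in limma. Among 3128 genes with more than 1 kept probe set 923 were called: another probe set was called the same way in 290, the opposite way in 24, and no other was called in 610; a gene can count under both of the former. Signals near background limit the 1334 dim genes, 101 of them called.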

Other observations

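Further gene groups are given here for 20 against 0.8 µM at 48 h, with a gene called at an adjusted p under 0.05 in limma and a background of 14.5% of all genes higher and 12.4% lower. Of 23 interferon-stimulated genes 7 rose and 2 fell: the antiviral genes Rsad2 (0.93 ± 0.23) and Gbp2 (0.92 ± 0.23) and the peptide transporter Tap1 (0.57 ± 0.12) rose, and Mx2 (-0.69 ± 0.22) and Oas1a (-0.62 ± 0.14) fell. Of 32 genes of DNA replication and mitosis 7 rose and 1 fell, with thymidylate synthase Tyms at 0.70 ± 0.14, the sliding clamp Pcna at 0.45 ± 0.05 and thymidine kinase Tk1 at -0.44 ± 0.11. Of 14 iron genes Hamp and Hmox1 rose, the latter losing its call without any of 7 arrays, and 4 fell: Aco1, the iron-sensing aconitase (-0.76 ± 0.06), the transferrin receptor Tfr2 (-0.42 ± 0.11), Hjv (-0.21 ± 0.08) and the iron exporter Slc40a1 (-0.20 ± 0.06).

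Of 16 apolipoprotein and lipoprotein assembly genes 9 fell and none rose (median -0.31), among them the transfer protein Mttp (-0.56 ± 0.07), Apom (-0.55 ± 0.06) and Apoc2 (-0.49 ± 0.05). Of 20 heat shock genes 8 rose and 3 fell, with Hspb8 at 0.36 ± 0.05 and Cryab at -0.62 ± 0.06. Of 31 genes of chemokines, interleukin-1 and NF-kappaB 4 rose and 3 fell, and the chemokines Cxcl12 (-0.66 ± 0.13) and Cxcl1 (-0.44 ± 0.13) were among those that fell; both shares of this list, and the raised share of the iron list, lie below the background.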
